A study of Mus musculus with 24 samples.

Results

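Complex I (NADH:ubiquinone oxidoreductase) is the entry point of the mitochondrial respiratory chain. The genes described here are its nuclear genes, taken as every row of the count table whose symbol begins with Nduf and holds no -ps, which gave 45 of 48526 rows. They were split by role into 7 core subunits, 29 accessory subunits, 7 assembly factors (Ndufaf1 to Ndufaf7) and 2 other genes, Ndufa4 and Ndufa4l2. The choice used symbols alone and no measured value, and 0 rows were set aside as pseudogenes. All 45 genes had enough reads to be tested.

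The tissue was renal cortex from C57BL/6 mice, with 4 groups and 6 libraries in each. The diabetic mice had received 5 daily injections of streptozotocin, a toxin of the insulin-producing beta cells, at 55 mg/kg from 6 weeks of age, and the non-diabetic mice 0.5 M sodium citrate in its place. Within each, mice drank plain water (vehicle) or water with PMX-53, a cyclic peptide that blocks the C5a receptor C5aR1, at 2 mg/kg, and all were followed for 24 weeks. The model is thus a chemical loss of beta cells in an inbred strain, and the labels do not give the sex of the mice. Nothing in the labels says that the libraries of a group are separate mice, so p-values measure the spread between libraries, which may be partly technical. Levels are counts scaled to a common library size (CPM), adjusted by the trimmed mean of M-values.

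Complex I takes electrons from NADH, hands them along a chain of iron-sulfur clusters to ubiquinone, and pumps protons across the inner mitochondrial membrane. The core subunits carry out this chemistry. The peripheral arm, which holds the NADH site and the clusters, has nuclear-encoded core subunits, whereas the proton-pumping core of the membrane arm is encoded in the mitochondrial genome. Accessory subunits surround the core and stabilise it, and assembly factors build the enzyme and then leave it. In the renal cortex the enzyme is abundant in the proximal tubule, whose reabsorption of glucose, salt and amino acids runs on mitochondrial ATP.

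Promoters are shown because many of these genes moved together between groups, as described further on. RefSeq promoters on GRCm38.p6, from 250 bases before to 50 after a start, were found for 39 of the 45 genes. They held a median of 59.0% G and C, against 52.7% over all 32851 RefSeq promoters. The median number of CG dinucleotides per window was 20, against 7 over all promoters. The windows of 5 of the 6 genes with the smallest p-values for diabetes in vehicle mice are given (all but Ndufb9), written 5′ to 3′ on the strand of the gene, with motif matches in capitals. Ndufa7 lies at chr17:33824322-33824621 on the plus strand, Ndufv2 at chr17:66101510-66101809 on the minus strand, Ndufb8 at chr19:44555393-44555692 on the minus strand, Ndufa11 at chr17:56717512-56717811 on the plus strand, and Ndufa5 at chr6:24527641-24527940 on the minus strand.
Ndufa7: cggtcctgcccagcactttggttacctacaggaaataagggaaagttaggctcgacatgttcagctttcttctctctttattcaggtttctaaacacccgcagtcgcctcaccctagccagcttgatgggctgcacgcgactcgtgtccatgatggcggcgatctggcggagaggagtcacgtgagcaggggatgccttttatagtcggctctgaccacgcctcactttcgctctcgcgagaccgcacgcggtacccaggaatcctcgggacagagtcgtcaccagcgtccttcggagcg
Ndufv2: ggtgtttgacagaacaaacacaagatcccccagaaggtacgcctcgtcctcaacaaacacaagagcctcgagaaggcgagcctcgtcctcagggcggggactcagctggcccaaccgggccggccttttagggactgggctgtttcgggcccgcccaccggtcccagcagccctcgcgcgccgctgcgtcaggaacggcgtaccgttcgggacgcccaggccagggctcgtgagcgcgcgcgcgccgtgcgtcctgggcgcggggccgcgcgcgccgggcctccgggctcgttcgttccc
Ndufb8: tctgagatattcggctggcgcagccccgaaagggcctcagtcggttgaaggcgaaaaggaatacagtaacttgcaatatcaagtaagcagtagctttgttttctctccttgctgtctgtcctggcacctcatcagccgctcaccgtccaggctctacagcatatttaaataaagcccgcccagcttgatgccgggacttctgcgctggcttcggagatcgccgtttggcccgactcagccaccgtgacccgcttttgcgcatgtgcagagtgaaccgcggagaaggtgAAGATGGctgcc
Ndufa11: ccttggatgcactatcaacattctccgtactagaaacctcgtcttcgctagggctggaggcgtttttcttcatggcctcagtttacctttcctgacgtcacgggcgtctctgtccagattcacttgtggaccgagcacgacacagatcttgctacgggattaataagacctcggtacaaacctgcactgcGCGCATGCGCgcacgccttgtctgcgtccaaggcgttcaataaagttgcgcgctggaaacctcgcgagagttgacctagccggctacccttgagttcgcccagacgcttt
Ndufa5: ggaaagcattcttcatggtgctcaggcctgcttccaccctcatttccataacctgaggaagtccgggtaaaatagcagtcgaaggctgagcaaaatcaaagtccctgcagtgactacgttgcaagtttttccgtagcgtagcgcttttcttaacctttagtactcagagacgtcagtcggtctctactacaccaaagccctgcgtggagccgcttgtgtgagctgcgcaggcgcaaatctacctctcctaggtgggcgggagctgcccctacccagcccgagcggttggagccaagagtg
Ndufa11 held GCGCATGCG, the core of the NRF1 motif, on both strands in an overlapping pair of matches that began 60 and 59 bases before the start. Ndufb8 held AAGATGG, a YY1 motif, beginning 38 bases after the start. The other three windows held none of the 4 motifs searched.

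Over the 39 promoters, on both strands, the NRF1 motif GCGCATGCG was present in 4 (10.3%, against 1.75% of all promoters). These were Ndufa11, Ndufa8, Ndufaf4 and Ndufaf5. AAGATGG (YY1) was present in 7 (17.9%, against 6.34% of all), namely Ndufa3, Ndufa9, Ndufb8, Ndufc1, Ndufs4, Ndufs6 and Ndufs7. All 7 matches lay on the strand of the gene and began 22 to 38 bases after the start, within the transcribed part. The letters AAGATGG contain ATG, and whether these matches fall at the start codon was not tested. CCGGAAG (ETS factors) was present in 5 (12.8%, against 8.86% of all), namely Ndufaf1, Ndufb6, Ndufb7, Ndufs3 and Ndufs8. TCAAGGTCA (estrogen-related receptors) was present in 0 of the 39 and in 0.423% of all. In all, 23 of the 39 windows held none of the 4. The shares over all promoters were not matched to the 39 for G and C or for CG content. These are matches of letters in a window, and they do not show binding.

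Levels were compared between genes only per kilobase of mRNA, in the non-diabetic vehicle libraries. Accessory subunits spanned 13.0 to 157 CPM per kb (median 67.5) and core subunits had a median of 69.3, with the lowest at 49.2. The assembly factors were all lower, from 5.48 to 11.3 CPM per kb (median 7.95). Ndufa4, a small protein long listed with complex I and now assigned to cytochrome c oxidase, was the highest at 266 ± 6.70 CPM per kb (SD, n = 6). Its paralog Ndufa4l2, known as a hypoxia-induced gene, was the lowest at 1.123 CPM per kb. Among the subunits the order began with Ndufb9 (157 ± 4.52), which sits in the membrane arm, and included Ndufa3 (129.5 ± 8.95), also of the membrane arm, and the core subunit Ndufv1 (109 ± 3.61). It ended with Ndufb4 (15.5 ± 1.70), Ndufs5 (13.8 ± 1.76) and Ndufab1 (13.0 ± 0.506), the mitochondrial acyl carrier protein. For 38 of the 44 pairs of neighbours in this order the ranges of the 6 libraries overlapped, so most adjacent genes were not separated beyond their spread. The order also depends on the single annotated transcript used for each length.

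**Figure D1:**
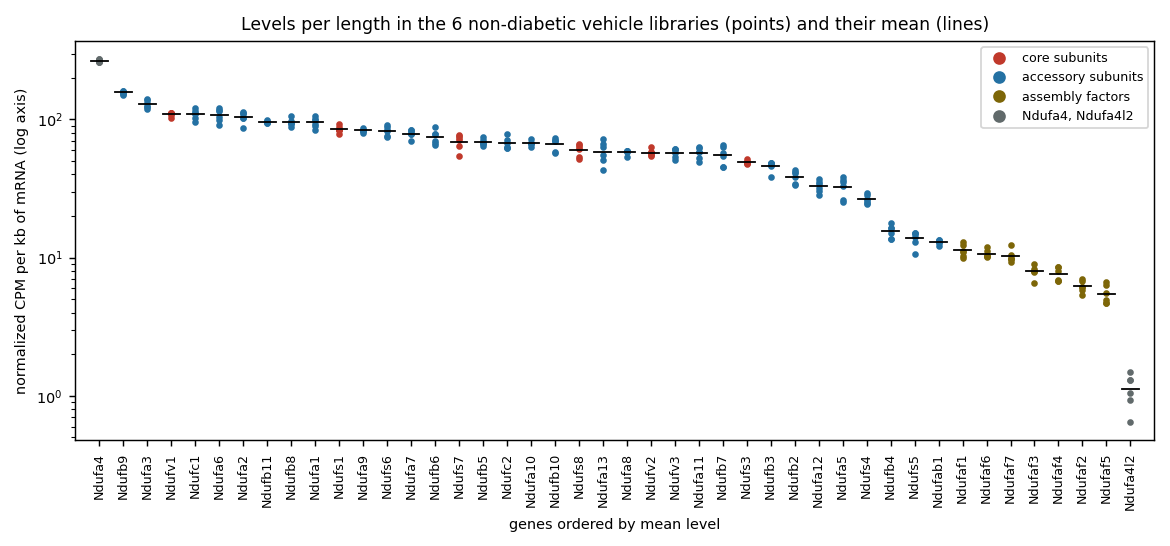
Normalized CPM per kilobase of mRNA on a log axis for 44 nuclear complex I genes, ordered by mean; points are the 6 non-diabetic vehicle libraries and lines their mean. Core and accessory subunits share 1 range, and the 7 assembly factors lie below every subunit mean, from 5.48 to 11.3.

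In mice on vehicle, 28 of the 45 genes were higher in diabetic than in non-diabetic cortex and 2 were lower, by edgeR's quasi-likelihood F test with Benjamini-Hochberg adjustment over 15808 genes. The higher genes were 5 of 7 core subunits, 22 of 29 accessory subunits and 1 of 7 assembly factors, and both lower genes were assembly factors. Over all genes tested, 20.4% were called higher and 19.9% lower. The median log2 fold change was 0.28 for accessory subunits, 0.18 for core subunits and 0.01 for assembly factors, beside a median near 0 (-0.00) over all genes. In bulk RNA, a different share of mitochondria-rich cells and a different amount of RNA per cell cannot be told apart. Scaling by the library total alone gave 15 genes called higher and moved the median of all genes to -0.09. Of all 15808 genes it called 1802 higher and 3982 lower.

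Among the core subunits, Ndufv2 moved most. It holds an iron-sulfur cluster in the NADH-oxidising tip of the enzyme, and its gene lies on chromosome 17 at 66078638 to 66101559. Its lowest, median and highest values were 92.3, 96.9 and 107 CPM in non-diabetic vehicle libraries, 120.3, 132 and 153 in diabetic vehicle, 93.1, 95.2 and 100.3 in non-diabetic PMX-53, and 93.8, 99.0 and 108 in diabetic PMX-53 libraries. The 6 diabetic vehicle libraries lay above all 18 others. The log2 fold change for diabetes on vehicle was 0.45 ± 0.05 (SE; adjusted p = 3.07e-07, edgeR).

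Ndufs3, a structural core subunit of the ubiquinone-binding module (chromosome 2, 90894634 to 90904827), showed a smaller difference. It ran 50.1, 51.0 and 54.0 CPM (lowest, median, highest) in non-diabetic vehicle, 56.3, 60.7 and 62.7 in diabetic vehicle, 50.3, 52.1 and 52.6 in non-diabetic PMX-53 and 49.6, 51.9 and 56.0 in diabetic PMX-53 libraries. All diabetic vehicle libraries were again above the rest. Its log2 fold change was 0.22 ± 0.04 (adjusted p = 7.89e-05, edgeR), but with scaling by the library total alone it was 0.12 and the call was lost (adjusted p = 0.111).

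Ndufs8 and Ndufs7, which carry the last iron-sulfur clusters before ubiquinone, rose by 0.19 ± 0.07 and 0.18 ± 0.06 on the log2 scale (edgeR, adjusted p = 0.0201 and 0.0242). Their ranges overlapped between the vehicle groups. Both calls were lost without non-diabetic vehicle library 5, without library 6 of that group and with scaling by the library total alone. For Ndufs7 the call was also lost without diabetic vehicle library 5, with the length trend removed and with only the groups compared in the fit (adjusted p from 0.0614 to 0.302 over its 6 losses, and from 0.0593 to 0.168 over the 3 of Ndufs8). The core subunits that did not pass were Ndufs1, the largest subunit of the peripheral arm, at 0.04 ± 0.05 (adjusted p = 0.496), and Ndufv1, which binds NADH and flavin, at 0.04 ± 0.04 (adjusted p = 0.513). Ndufv1 ran 171.0, 184 and 186 CPM in non-diabetic vehicle and 179.7, 185.0 and 193 in diabetic vehicle libraries. Ndufv1 and Ndufv2, which lie side by side in the NADH-oxidising module, thus had log2 fold changes of 0.04 and 0.45; the difference between the genes was not tested.

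The accessory subunits held the largest differences. Ndufa7, a matrix-arm subunit (chromosome 17, 33824572 to 33838317), had the smallest p-value. Its lowest, median and highest values were 37.0, 42.0 and 44.2 CPM in non-diabetic vehicle, 50.9, 59.7 and 63.7 in diabetic vehicle, 42.1, 44.0 and 45.2 in non-diabetic PMX-53 and 37.1, 43.1 and 46.5 in diabetic PMX-53 libraries. The lowest diabetic vehicle library was above the highest of every other group, and the log2 fold change was 0.50 ± 0.06 (adjusted p = 1.27e-07, edgeR).

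Ndufb9 (chromosome 15, 58933756 to 58939488), a membrane-arm subunit, ran 105.5, 111 and 114 CPM in non-diabetic vehicle and 137, 145 and 148 in diabetic vehicle libraries. In non-diabetic PMX-53 libraries it ran 107, 111 and 123, and in diabetic PMX-53 libraries 109, 117 and 132. Here too the diabetic vehicle libraries did not overlap the others. Its log2 fold change was 0.38 ± 0.05 (adjusted p = 2.55e-07, edgeR).

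Ndufb8 (chromosome 19, 44548572 to 44555440), another membrane-arm subunit and a common immunoblot marker of the assembled enzyme, ran 59.8, 64.2 and 71.9 CPM in non-diabetic vehicle and 87.8, 89.7 and 99.5 in diabetic vehicle libraries. The non-diabetic PMX-53 libraries ran 62.3, 65.9 and 71.8, and the diabetic PMX-53 libraries 57.3, 64.9 and 79.5. No library of another group reached the diabetic vehicle range. The log2 fold change was 0.49 ± 0.06 (adjusted p = 5.22e-07, edgeR).

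Ndufa5, a matrix-arm subunit packed against the ubiquinone-binding module (chromosome 6, 24518666 to 24528013), had the greatest fold change of the 45 genes. It ran 22.2, 29.9 and 33.7 CPM in non-diabetic vehicle, 38.5, 50.4 and 57.9 in diabetic vehicle, 26.4, 31.1 and 34.9 in non-diabetic PMX-53 and 25.6, 31.6 and 36.0 in diabetic PMX-53 libraries. The diabetic vehicle libraries lay above all others. Its log2 fold change for diabetes on vehicle was 0.80 ± 0.11 (adjusted p = 2.4e-06, edgeR), a rise of 74.7%.

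The other accessory subunits called higher lay between 0.18 and 0.50 on the log2 scale. They included further matrix-arm subunits, such as Ndufa6 (0.50 ± 0.07) and Ndufa12 (0.44 ± 0.08), and Ndufs4 (0.28 ± 0.06) and Ndufs6 (0.29 ± 0.06), which join late with the NADH-oxidising module. Subunits of the membrane arm were also among them, such as Ndufa11 (0.47 ± 0.06), Ndufa13 (0.45 ± 0.10), Ndufb10 (0.33 ± 0.07) and Ndufb11 (0.24 ± 0.04). With scaling by the library total alone the calls of Ndufs4 (adjusted p = 0.0715, edgeR) and Ndufb11 (0.072) were lost. So were those of Ndufa2, Ndufa8, Ndufa9, Ndufb5, Ndufc1 and Ndufc2. The 7 accessory subunits not called were Ndufb3 (0.17, adjusted p = 0.0534, edgeR), Ndufb4 (0.12), Ndufa10 (0.10), Ndufv3 (0.07), Ndufa1 (0.06), Ndufab1 (0.01) and Ndufb2 (-0.06). Summed over the 29, accessory subunits reached 1601 ± 59.5 CPM (SD, n = 6) in non-diabetic vehicle, 1961 ± 58.2 in diabetic vehicle, 1637 ± 42.7 in non-diabetic PMX-53 and 1623 ± 126 in diabetic PMX-53 libraries. The core sums were 881 ± 9.49, 977.5 ± 22.4, 880 ± 20.6 and 879 ± 38.5 CPM in the same order. The ratio of accessory to core sums was 1.82 ± 0.07 in non-diabetic vehicle and 2.01 ± 0.07 in diabetic vehicle libraries, with ranges of 1.72 to 1.88 and 1.86 to 2.07 that touched at diabetic vehicle library 4.

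**Figure D2:**
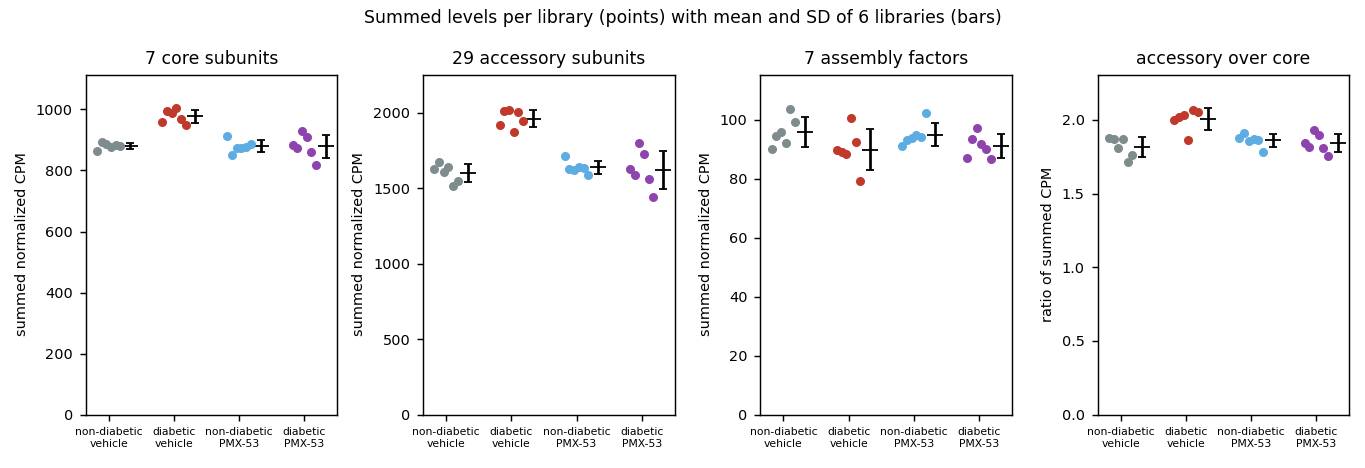
Summed normalized CPM of the core subunits, accessory subunits and assembly factors, and the ratio of accessory to core sums; points are libraries, and bars give the mean and SD of the 6 in a group. The diabetic vehicle libraries lie above the others in the first panels (accessory sums of 1873 to 2016 CPM), while the assembly sums overlap across groups.

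Of the 7 assembly factors, 2 fell with diabetes on vehicle and 1 rose, beside 19.9% and 20.4% of all genes. Ndufaf1, which belongs to the complex that builds the membrane arm (chromosome 2, 119655446 to 119662827), fell by 0.35 ± 0.08 on the log2 scale (adjusted p = 0.0014, edgeR). It ran 14.4, 16.2 and 18.9 CPM in non-diabetic vehicle, 11.7, 12.5 and 14.4 in diabetic vehicle, 12.5, 15.04 and 18.2 in non-diabetic PMX-53 and 13.7, 14.96 and 16.9 in diabetic PMX-53 libraries. The vehicle groups met at their edges, with 14.39 CPM the lowest non-diabetic and 14.42 the highest diabetic value.

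Ndufaf4, which acts with Ndufaf3 on the ubiquinone-binding module (chromosome 4, 24898083 to 24905001), fell by 0.33 ± 0.09 (adjusted p = 0.00494, edgeR). Its values were 24.5, 26.9 and 31.1 CPM in non-diabetic vehicle, 16.4, 22.0 and 27.2 in diabetic vehicle, 25.01, 27.1 and 30.7 in non-diabetic PMX-53 and 20.8, 24.4 and 25.7 in diabetic PMX-53 libraries. The groups overlapped, and diabetic vehicle library 6 was the lowest of all. Ndufaf5, which modifies Ndufs7 during assembly, was called higher at 0.28 ± 0.11 (adjusted p = 0.0447, edgeR). That call was lost in 18 of the alternative fits, 6 of them changes of method, among them scaling by the library total alone and limma-voom, and the other 12 the removal of a single library. Ndufaf2 (0.11), Ndufaf7 (0.09), Ndufaf6 (0.01) and Ndufaf3 (0.01) did not pass the test. The 7 assembly factors summed to 95.8 ± 4.94 CPM in non-diabetic vehicle and 89.8 ± 6.87 in diabetic vehicle libraries.

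**Figure D3:**
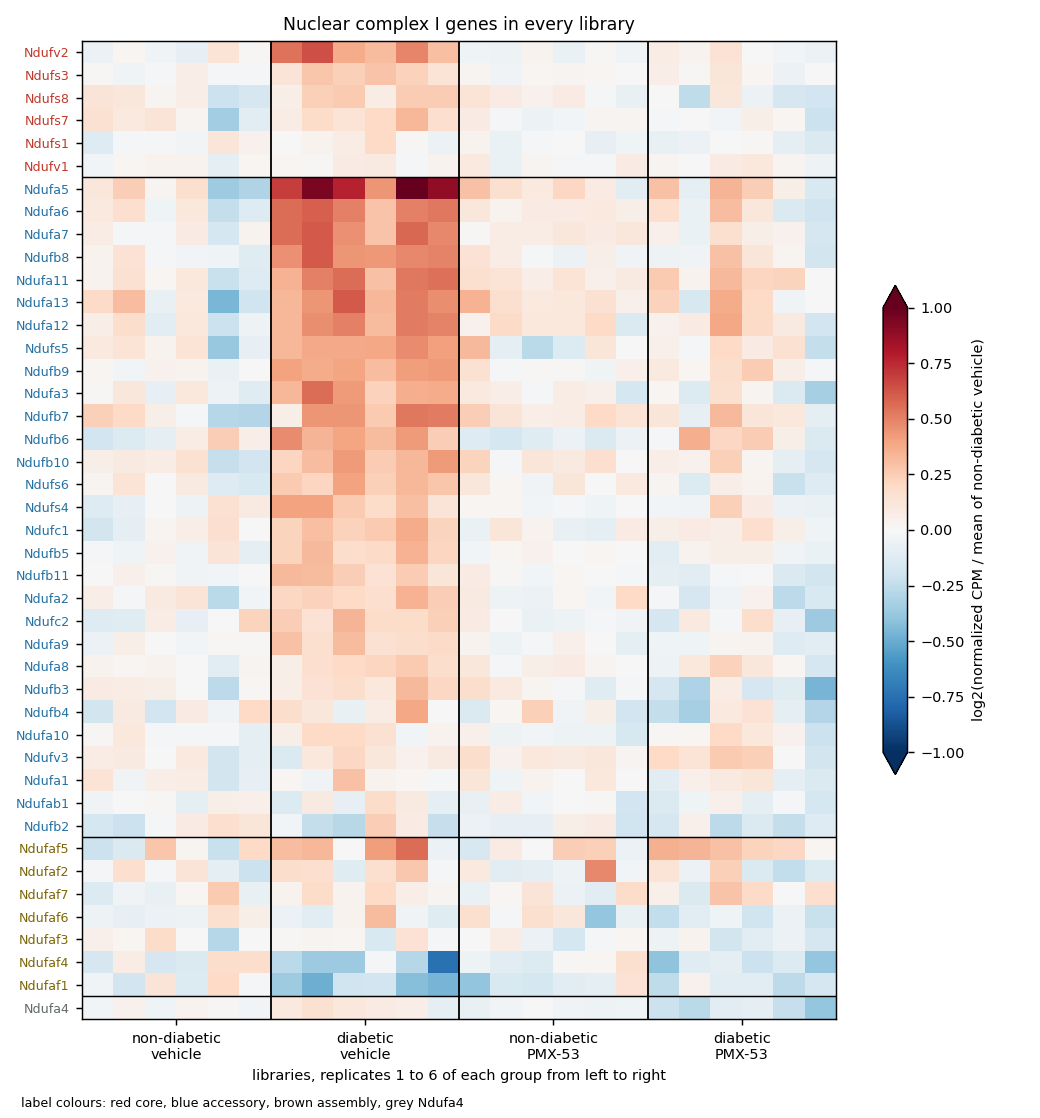
Log2 of normalized CPM over the mean of the non-diabetic vehicle group for 43 genes (rows, ordered by class and by change; Ndufa4l2 is left out for its low counts) in the 24 libraries (columns). The diabetic vehicle block is red for most subunits, up to Ndufa5 at 0.80 on average, and blue for Ndufaf1 and Ndufaf4.

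In diabetic mice, PMX-53 was accompanied by lower levels of 28 of the 45 genes and by higher levels of 0. These were 5 of 7 core subunits, 22 of 29 accessory subunits, 0 of 7 assembly factors and Ndufa4 (edgeR, adjusted p under 0.05). Of all genes tested, 13.5% were called lower and 13.9% higher. The median log2 fold change of the 45 was -0.26, beside 0.00 for all genes. With scaling by the library total alone, 16 were called lower and 1, Ndufaf1, higher, and the median of all genes shifted to 0.12. Of all 15808 genes 924 were then called lower and 3586 higher.

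The same diabetic vehicle libraries enter this comparison and that of diabetes on vehicle, with opposite sign, so the directions are not independent. Ndufa8, a membrane-arm subunit, was at 0.18 ± 0.05 with diabetes on vehicle (adjusted p = 0.00634, edgeR) and at -0.13 ± 0.05 with PMX-53 (adjusted p = 0.0565). Its call for diabetes was lost with scaling by the library total alone (adjusted p = 0.332, edgeR). With PMX-53 it was called lower by DESeq2 and with a stricter filter on low counts. The same held without diabetic PMX-53 library 3, diabetic vehicle library 1 or non-diabetic vehicle library 5.

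In the diabetic mice on PMX-53, Ndufv2 fell by 0.42 ± 0.05 on the log2 scale (adjusted p = 3.56e-06, edgeR). The core subunits Ndufs8 (-0.28 ± 0.07), Ndufs7 (-0.21 ± 0.06) and Ndufs3 (-0.19 ± 0.04) were also called lower. With scaling by the library total alone the calls of Ndufs7 and Ndufs3 were lost (for Ndufs3 adjusted p = 0.38, edgeR). That of Ndufs7 was also lost with the length trend removed (adjusted p from 0.0738 to 0.354 over its losses, edgeR). Ndufs1 (-0.10 ± 0.05) and Ndufv1 (-0.00 ± 0.04) did not pass. Among accessory subunits, Ndufa5 fell by 0.68 ± 0.11, Ndufa7 by 0.48 ± 0.06, Ndufa6 by 0.46 ± 0.07, Ndufb8 by 0.45 ± 0.06 and Ndufa3 by 0.44 ± 0.07. Ndufb3, a membrane-arm subunit, ran 36.9, 39.3 and 44.1 CPM in diabetic vehicle and 25.6, 31.3 and 37.0 in diabetic PMX-53 libraries, groups that met at their edges (-0.35 ± 0.07, adjusted p = 0.000582, edgeR). Ndufaf1 was at 0.21 ± 0.08 (adjusted p = 0.0577) and Ndufaf4 at 0.11 ± 0.09 (adjusted p = 0.404).

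**Figure D4:**
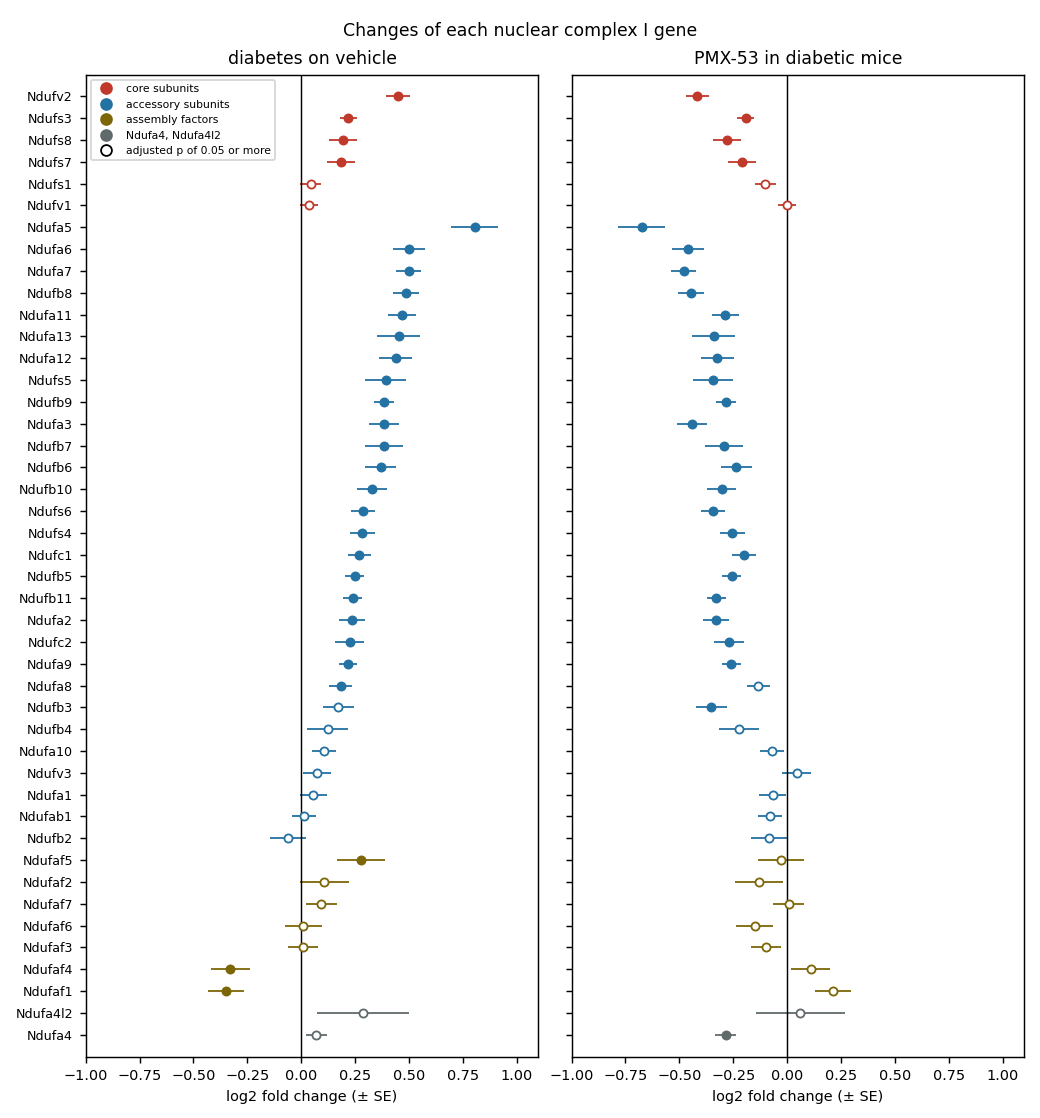
Log2 fold change with its SE for 44 of the genes, for diabetes on vehicle (left) and for PMX-53 in diabetic mice (right); filled points passed an adjusted p of 0.05. Both panels use the same diabetic vehicle libraries, so they are not independent; Ndufa5 reaches 0.80 on the left and -0.68 on the right.

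Ndufa4 (chromosome 6, 11900292 to 11907497) was low in another group. It ran 158, 162 and 167 CPM in non-diabetic vehicle, 152.5, 173 and 181 in diabetic vehicle, 155, 158.5 and 163 in non-diabetic PMX-53 and 124.5, 139 and 152 in diabetic PMX-53 libraries. All 6 diabetic PMX-53 libraries lay below the other 18. The log2 fold change was 0.07 ± 0.05 for diabetes on vehicle (adjusted p = 0.244, edgeR), -0.29 ± 0.05 for PMX-53 in diabetic animals (adjusted p = 7.07e-05) and -0.18 ± 0.05 for diabetes on PMX-53 (adjusted p = 0.015). With scaling by the library total alone the call for diabetes on PMX-53 was lost (adjusted p = 0.149, edgeR). Ndufa4l2 stayed between 0.604 and 2.21 CPM in all 24 libraries and passed no test.

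In non-diabetic mice, PMX-53 gave 0 calls among the 45 genes and 0% of all genes by edgeR, with 1 of the 45 and 1142 of all genes at an unadjusted p under 0.05. Over all genes DESeq2 called 1 higher and 3 lower, and limma-voom called 0. The log2 fold changes of the core subunits lay between -0.03 and 0.04. Those of the accessory subunits lay between -0.11 and 0.16.

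Between the diabetic and non-diabetic mice that both drank PMX-53, 1 of the 45 genes was called higher and 1 lower, beside 5.52% and 4.52% of all genes. Ndufa4 fell, as above, and Ndufb6, a membrane-arm subunit on chromosome 4 (40270591 to 40279421), rose by 0.25 ± 0.07 (adjusted p = 0.0283, edgeR). Ndufb6 ran 43.5, 45.0 and 47.2 CPM in non-diabetic PMX-53 and 44.5, 54.0 and 63.1 in diabetic PMX-53 libraries, groups that overlapped. Its call was lost without any of diabetic PMX-53 libraries 2, 3 and 4 or non-diabetic PMX-53 libraries 2, 3 and 5 (adjusted p from 0.0515 to 0.0827), and 39.0% of its exonic bases are shared with Smim27 on the opposite strand. Median log2 fold changes were 0.01 for core and -0.03 for accessory subunits.

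Whether PMX-53 acted differently in diabetic and non-diabetic mice was tested by the interaction of the 2 factors. It was negative and past the threshold for 21 of the 45 genes (3 core, 17 accessory and Ndufa4) and positive for 0, beside 4.76% and 4.66% of all genes. The sign means that the PMX-53 log2 fold change was lower in diabetic mice. The smallest p-values belonged to Ndufa7 (-0.56 ± 0.08, adjusted p = 0.000106), Ndufb11 (-0.34 ± 0.06, adjusted p = 0.000945) and Ndufb8 (-0.48 ± 0.09, adjusted p = 0.00106), all by edgeR. Ndufb11, an X-linked membrane-arm subunit (20615326 to 20617619), ran 85.1, 87.2 and 90.2 CPM in non-diabetic vehicle, 94.9, 104 and 109 in diabetic vehicle, 85.7, 87.4 and 92.3 in non-diabetic PMX-53 and 76.6, 81.2 and 87.2 in diabetic PMX-53 libraries. Its diabetic vehicle libraries were high and its diabetic PMX-53 libraries reached below both non-diabetic groups. The core subunits called were Ndufv2 (-0.39), Ndufs8 (-0.32) and Ndufs3 (-0.20). With scaling by the library total alone 9 genes were called, beside 277 of all 15808 genes lower and 1059 higher. The calls of these 3 core subunits (adjusted p of 0.0922, 0.105 and 0.562, edgeR) and of Ndufb11 (0.107) were then lost. For Ndufs8 the call was also lost without diabetic PMX-53 library 2 or 5 or non-diabetic vehicle library 6, and for Ndufs3 without a filter on low counts and with the length trend removed.

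Of the 45 genes, 13 passed none of the 5 comparisons. They were the core subunits Ndufs1 and Ndufv1, the accessory subunits Ndufa1, Ndufa10, Ndufab1, Ndufb2, Ndufb4 and Ndufv3, the assembly factors Ndufaf2, Ndufaf3, Ndufaf6 and Ndufaf7, and Ndufa4l2. Without the low Ndufa4l2, the coefficient of variation within a group ranged from 1.36% to 18.7%, with group medians of 4.86% to 8.39%. For Ndufa4l2 it was 16.7% to 30.35%.

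The mitochondrial genome encodes the core subunits of the membrane arm. Of 7 such genes 5 were tested, since mt-Nd3 and mt-Nd4l were at or near 0 CPM in every group. Why almost no reads were counted for these genes was not tested. With diabetes on vehicle mt-Nd6 (0.71 ± 0.15), mt-Nd2 (0.54 ± 0.20), mt-Nd1 (0.48 ± 0.14) and mt-Nd5 (0.45 ± 0.15) were called higher, beside 20.4% of all genes. Their adjusted p-values ran from 0.000627 to 0.0357 (edgeR), and mt-Nd4 was at 0.22 ± 0.19. For all 5 the ranges of the vehicle groups overlapped. The alternative fits, such as scaling by the library total alone, were not examined for these genes. With PMX-53 in diabetic mice 0 of the 5 were called, beside 13.9% of all genes higher and 13.5% lower. Their log2 fold changes lay between -0.52 and -0.17. mt-Nd6 was also higher with diabetes on PMX-53 (0.50 ± 0.15, adjusted p = 0.0353, edgeR), beside 5.52% of all genes. Their sum varied widely between libraries, at 17440 ± 4199 CPM in non-diabetic vehicle and 23670 ± 2593 in diabetic vehicle libraries.

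Assembly genes with other symbols were described from a list of which 10 are in the table. With diabetes on vehicle 4 fell and 0 rose, beside 19.9% and 20.4% of all genes. Tmem126b fell by 0.33 ± 0.07 on the log2 scale, Acad9 by 0.24 ± 0.06, Tmem186 by 0.21 ± 0.07 and Aifm1 by 0.18 ± 0.05. The first 3 encode partners of Ndufaf1 in the membrane-arm assembly complex, and Aifm1 is a mitochondrial flavoprotein needed for import of respiratory-chain subunits. Ecsit, a further partner, was at -0.18 ± 0.08 (adjusted p = 0.0708, edgeR). With PMX-53 in diabetic mice Tmem186 (0.19 ± 0.07) and Sfxn4 (0.34 ± 0.11) rose and Tmem70 (-0.16 ± 0.05) fell, beside 13.9% and 13.5% of all genes. With diabetes on PMX-53 Tmem126b, Acad9 and Tmem70 fell by 0.30, 0.21 and 0.19, beside 4.52% of all genes. The median over the 10 for diabetes on vehicle was -0.17.

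Median log2 fold changes for diabetes on vehicle were higher in genes with shorter mRNAs, over the subunits and, by less, over all genes. The median of the 18 subunits with an mRNA under 800 bases was 0.35, and 15 were called higher, and that of all 1151 genes of that length was 0.07 with 21.1% higher and 12.5% lower. From 800 to under 1600 bases the 11 subunits had 0.22 with 9 higher, and all genes 0.03 with 21.9% higher and 15.2% lower. From 1600 bases the 7 subunits had 0.11 with 3 higher, and all genes -0.01 with 20.1% higher and 21.5% lower. After a trend on mRNA length was removed from each library, 25 of the 45 genes were called higher with diabetes on vehicle, 24 lower with PMX-53 in diabetic mice and 18 in the interaction. Of all 15808 genes that fit called 3249 higher with diabetes on vehicle, 2226 lower with PMX-53 in diabetic mice and 716 lower in the interaction.

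**Figure D5:**
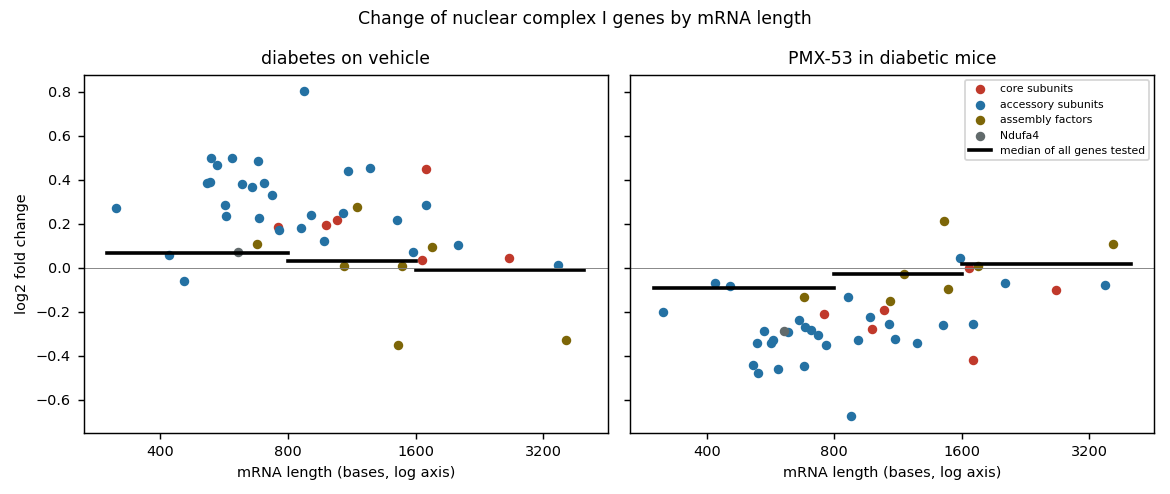
Log2 fold change against mRNA length (log axis) for 43 genes (Ndufa4l2 is left out), for diabetes on vehicle (left) and PMX-53 in diabetic mice (right); black lines are medians of all genes tested within 3 length ranges. Most subunits lie above the black lines on the left, whose values run from 0.07 to -0.01, and below them on the right.

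Other features of the libraries differed between the groups, and their part in these results was not tested except where a value is given. Totals were 10964992 to 22000895 counts, with means of 18719832 in diabetic vehicle and 14885538 to 16609852 in the other groups. Mitochondrially encoded RNA took 29.5% of counts in diabetic vehicle and 22.6% to 25.8% elsewhere, ribosomal RNA 28.1% and 22.2% to 24.97%. These shares overlap, since mitochondrial ribosomal RNA enters both. Of the counts without ribosomal RNA, mitochondrially encoded RNA took 6.53% in diabetic vehicle and 4.86% to 5.48% elsewhere. With mitochondrially encoded and ribosomal RNA both removed before scaling, 28 genes were higher with diabetes on vehicle, 28 lower with PMX-53 and 21 in the interaction. Of the 15783 genes in that fit, 3206, 2069 and 726 were called in the same comparisons and directions. Of 81 cytosolic ribosomal protein genes tested, 68 were higher with diabetes on vehicle and 67 lower with PMX-53 in diabetic mice. Over all genes tested, 20.4% were higher and 19.9% lower with diabetes on vehicle. With PMX-53 in diabetic mice these shares were 13.9% and 13.5%. They also stand beside the counts of cell type markers below, where 1 call in a short list is near the share of all genes. Small noncoding RNAs summed to 9880 CPM in diabetic vehicle and 6592 to 7175 elsewhere. The label of renal cortex was met by 8 proximal tubule markers, all present, which summed to 9746 to 12290 CPM in diabetic vehicle, 13590 to 16450 in non-diabetic vehicle, 14390 to 17710 in non-diabetic PMX-53 and 11370 to 15470 in diabetic PMX-53 libraries. With diabetes on vehicle 5 of the 8 were called lower and 2 higher, and with PMX-53 in diabetic mice 3 were higher. All 5 principal cell markers were higher with diabetes on vehicle, with sums of 200.0 to 319 CPM in diabetic vehicle, 92.0 to 131 in non-diabetic vehicle, 126 to 215 in non-diabetic PMX-53 and 167 to 229.8 in diabetic PMX-53 libraries, so that both PMX-53 groups overlapped the diabetic vehicle range. Medulla and papilla markers summed to 64.5 to 117 CPM in diabetic vehicle, 32.3 to 49.8 in non-diabetic vehicle, 30.4 to 78.5 in non-diabetic PMX-53 and 27.8 to 43.9 in diabetic PMX-53 libraries. Of the 3 tested, 2 were higher with diabetes on vehicle and 2 lower with PMX-53 in diabetic mice. With diabetes on vehicle, markers of the distal convoluted and connecting tubule (4 of 5) and intercalated cells (3 of 5) were also higher, the thick ascending limb had 2 of 5 higher and 2 lower, macrophages 1 of 4 lower and podocytes 0 of 5 called. With PMX-53 in diabetic mice 4 of 5 podocyte markers, 1 of 5 distal and 1 of 5 intercalated markers were higher, and 1 of 5 thick ascending limb and 1 of 5 principal cell markers were lower. Fat and muscle markers summed to under 1 CPM in every library.

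The diabetic vehicle group also stood apart at single genes. Nnt, the mitochondrial transhydrogenase, was at 242 to 272 CPM there and 101.0 to 121 in the other groups, Acad10 at 11.6 to 16.4 against 57.1 to 82.9, and Wdfy1 at 66.6 to 79.6 against 26.1 to 33.2. Ide was at 62.2 to 76.5 CPM there and 111 to 169 elsewhere. For the 3 comparisons that use the diabetic vehicle libraries, a trait of that group and the effect of diabetes or PMX-53 cannot be told apart. Of the 45 genes, 19 share exonic bases with another annotated gene, mostly on the opposite strand. The largest shares were Ndufaf2 with 65.6%, Ndufb6 with 39.0% and Ndufa13 with 30.0%, all on the opposite strand. On the same strand the largest was Ndufb9, with 19.5% shared with Gm49356. The strand setting of the counting is not given in the sources used here.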

How the data were processed

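The authors deposited whole-number read counts per gene for 24 libraries, with no normalization, per the file headers. Per the labels' protocols, directional libraries were made from 200 ng of RNA after ribosomal RNA depletion. Per the submitters' processing notes, bcl2fastq 2.20.0.422 and STAR were used with GRCm38. What counted the reads, on which annotation and with which strand setting is not stated in the labels. Libraries held 10964992 to 22000895 counts, so 1 CPM rests on about 11 to 22 counts. All 60 pairs within groups differed by more than counting error (chi-square per degree of freedom 5.46 or more).

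Counts were tested in R 4.3.3 with edgeR 4.0.16: default expression filter (15808 genes), TMM scaling, 1 model of all 24 libraries with a coefficient per group, robust quasi-likelihood F test, Benjamini-Hochberg adjustment over all genes tested, and a threshold of 0.05. The standard error is the log2 fold change divided by the square root of F. The procedure was run on simulated data in which a small share of genes changed, in equal numbers up and down. That setting differs from these data, where many genes were called, so it cannot decide between the ways of scaling. Gene positions and mRNA lengths came from GENCODE on GRCm38, with 1 transcript per gene chosen by annotation support and then as the shortest. Promoters came from RefSeq on GRCm38.p6. Alternatives used DESeq2 1.42.0 and limma 3.58.1, among others. Any of the 45 genes could be named. Full values went to the genes of each class with the smallest p for diabetes on vehicle, to those called against the majority and to the top 3 of the interaction, with Ndufa4, Ndufa5, Ndufb3 and Ndufb6 added for their patterns. One gene enters the counts and sums and is not reported here by itself. Members, lists and rules were chosen with earlier results of these data known.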

Additional observations from a re-analysis of the deposited data

Results flagged for a closer look

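The PMX-53 log2 fold change was lower in diabetic than in non-diabetic mice, by the interaction test of edgeR, for 21 genes. The differences were -0.39 for Ndufv2, -0.32 for Ndufs8 and -0.20 for Ndufs3 among core subunits, and -0.25 for Ndufa4. Among accessory subunits they were -0.80 for Ndufa5, -0.56 for Ndufa7, -0.53 for Ndufa6, -0.50 for Ndufa13, -0.48 for Ndufb8, -0.46 for Ndufa3, -0.43 for Ndufb7, -0.41 for Ndufa12, -0.40 for Ndufb10, -0.40 for Ndufs6, -0.39 for Ndufa11, -0.38 for Ndufb3, -0.36 for Ndufa2, -0.34 for Ndufb11, -0.32 for Ndufb9, -0.27 for Ndufb5 and -0.25 for Ndufa9. With scaling by the library total alone the calls were lost for Ndufv2, Ndufs8, Ndufs3, Ndufa4, Ndufb7, Ndufa12, Ndufb3, Ndufa2, Ndufb11, Ndufb9, Ndufb5 and Ndufa9. Ndufb7 lost its call in 8 fits in all, 5 of them the removal of a single library (adjusted p from 0.051 to 0.0647, edgeR). Ndufa4 lost its call in 3 fits (adjusted p from 0.051 to 0.382, edgeR), and Ndufa13 without a filter on low counts (0.0732).

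A single library lay far from the other 5 of its group in 13 of 200 cases examined, and chance gives about 1 in 20. In diabetic vehicle mice these were Ndufa6 in library 4 (77.7 CPM, others 90.6 to 96.5), Ndufaf6 in library 4 (14.3 CPM, others 10.6 to 11.9) and the ratio of accessory to core sums in library 4 (1.86, others 2.00 to 2.07). In the same group Ndufb8 was apart in library 2 (99.5 CPM, others 87.8 to 91.5), Ndufa1 in library 3 (49.1 CPM, others 39.1 to 41.0) and Ndufa4 in library 6 (152.5 CPM, others 170.3 to 181). In non-diabetic vehicle library 5 they were Ndufa8 (46.1 CPM, others 49.7 to 51.1), Ndufb3 (29.4 CPM, others 35.3 to 37.2) and Ndufaf7 (21.5 CPM, others 16.3 to 18.2). In the PMX-53 groups they were Ndufs7 in diabetic library 6 (45.2 CPM, others 51.4 to 54.7), Ndufa13 in non-diabetic library 1 (93.2 CPM, others 76.1 to 82.2), Ndufaf2 in non-diabetic library 5 (5.87 CPM, others 3.93 to 4.52) and the assembly sum in non-diabetic library 6 (102 CPM, others 91.2 to 94.8).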

How the results depend on the processing

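No called value changed sign under the alternatives run. Scaling by the library total alone moved counts most: with diabetes on vehicle 15 genes were called higher, with PMX-53 in diabetic mice 16 lower and 1 higher, with diabetes on PMX-53 0 higher and 0 lower, and in the interaction 9 lower. Of all 15808 genes it called 1802 higher with diabetes on vehicle, and 924 lower and 3586 higher with PMX-53 in diabetic mice. With diabetes on PMX-53 it called 572 higher and 299 lower, and in the interaction 277 lower. Of all genes called for diabetes on vehicle, 31.2% were then higher, against 50.7% with TMM. For PMX-53 in diabetic mice that share was 79.5%, against 50.7%, for diabetes on PMX-53 65.7% against 54.9%, and for the interaction 79.3% against 49.5%. The limma-voom fit called 1 gene higher with PMX-53 in diabetic mice, 2 lower with diabetes on PMX-53 and 1 higher in the interaction. Removing the length trend gave 1 higher with PMX-53 in diabetic mice, in each case Ndufaf1, which was also called there without any of diabetic vehicle libraries 3 and 4, non-diabetic PMX-53 libraries 1 and 6 and non-diabetic vehicle library 5. Fitting only the groups compared gave 2 lower with diabetes on PMX-53. Leaving out each library in turn gave 25 to 29 genes higher and 2 to 2 lower with diabetes on vehicle, 0 to 1 higher and 27 to 30 lower with PMX-53 in diabetic mice, 0 to 0 in either direction with PMX-53 in non-diabetic mice, 0 to 1 higher and 1 to 2 lower with diabetes on PMX-53, and 0 to 1 higher and 19 to 23 lower in the interaction. The labels number replicates 1 to 6 in each group but do not say that equal numbers pair the mice, and 3 of 36 pairs of equal number had deviations correlated over 0.1 (median 0.01). With the replicate number as a block, 27 genes were higher and 2 lower with diabetes on vehicle, 28 lower with PMX-53 in diabetic mice and 21 lower in the interaction. Of all 15808 genes that fit called 3143 higher and 3078 lower, 2015 lower and 666 lower in the same comparisons. Depth limits Ndufa4l2, at about 1 CPM.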
